A study of Mus musculus with 6 samples.

Results

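Nuclear genes of respiratory complexes II, III and V, together with cytochrome c, were described in brown adipose tissue (BAT) of WT and sST2-KO mice. The genes were chosen by symbol alone (Sdha to Sdhd and the Sdhaf factors, Uqcr, Uqcc, Cyc1, Cycs, Bcs1l, Atp5, Atpaf1 and Atpaf2). A further condition was at least 10 counts over the 6 libraries. Of 35976 rows of the count table, 43 carried such a symbol and 41 were kept. The pseudogenes Uqcrh-ps1 and Atp5c1-ps fell below the minimum. The 41 genes were 8 of complex II, 13 of complex III, 19 of complex V and Cycs, and all 41 passed the filter on low counts that left 14542 genes for testing.

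Complex II (succinate dehydrogenase) oxidises succinate in the citric acid cycle and passes the electrons to ubiquinone. Complex III (the cytochrome bc1 complex) hands them on to cytochrome c and pumps protons out of the matrix. Complex V (ATP synthase) lets protons flow back through a rotor, the c ring, and makes ATP in its F1 head. Brown adipocytes are rich in respiratory chain and are known for little ATP synthase relative to it, since uncoupling protein 1 (Ucp1) lets protons re-enter without ATP synthesis, and low expression of the c subunit gene Atp5g1 is the classical account of that shortage.

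Bulk poly-A RNA-seq was performed on BAT of 3 WT and 3 sST2-KO mice, to ask how BAT gene expression differs in the cold without sST2, the soluble form of the IL-33 receptor. All 6 mice had a C57BL/6J background, and in all of them the nerves of the BAT had been cut before a period at thermoneutrality and 8 h at 10 °C. Mice were male and 10 weeks old when they entered surgery. sST2-KO mice lacked, in all tissues, the Il1rl1 intron that holds the stop codon of sST2. Homozygous and WT animals came from crosses of heterozygous mice. No innervated or warm BAT was sequenced here, so that every value below is from denervated, cold-exposed tissue. Each library is taken as 1 mouse from its numbered label. The labels name no culture, litter or day, and p-values measure the spread between these libraries.

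Total counts ranged from 8159442 to 12874809 per library. Il1rl1, counted over all of its isoforms, had 19, 19 and 6 counts in WT and 55, 69 and 142 in sST2-KO, so that the table does not show the loss of the soluble form. The summed level of 15 brown adipocyte markers was 9220 to 17485 CPM (counts scaled to a common library size with TMM factors) in WT and 423 to 2139 in sST2-KO, and none of the 15 was at 0 in any library. The 18 skeletal muscle markers summed to 120 to 1693 CPM in WT and 4538 to 18797 CPM in sST2-KO. All 18 were higher in sST2-KO with no overlap between the groups, but only 5 of them rose by the test used below. Among all 14542 genes tested, 3174 were likewise higher with no overlap. Of the 18 muscle markers, 4 were at 0 in at least 1 library. T cell markers summed to 38.3 to 55.1 CPM in WT and 199 to 280 CPM in sST2-KO, and 8 of the 9 tested rose. Neutrophil markers (8) summed to 32.2 to 149 CPM in WT and 153 to 739 CPM in sST2-KO (3 rose), macrophage markers (12) to 1012 to 1332 CPM in WT and 1775 to 7039 CPM in sST2-KO (3 rose), and erythrocyte markers (6) to 483 to 1581 CPM in WT and 11.1 to 108 CPM in sST2-KO. WT replicate 2 stood apart by liver markers, 5903 CPM against 30.8 to 51.5 in the other WT libraries. In sST2-KO, replicate 3 stood apart by several lists. Its macrophage markers were at 7039 CPM against 1775 and 1786, its fibroblast markers at 10131 CPM against 1168 and 2301, its skeletal muscle markers at 18797 CPM against 4538 and 8332, and its mitochondrial genome share at 6.80% against 14.2% and 16.6%. Fibroblast and endothelial marker sums overlapped between groups. The part of these differences in cell content in the results below was not tested. In bulk tissue, fewer brown adipocytes and less RNA per brown adipocyte cannot be told apart.

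The 3 c subunit genes encode the same mature protein behind different import sequences and had different fold changes, 1 of them positive, and Cycs is the classical target of nuclear respiratory factor 1 (NRF1). The 250 bases before their annotated starts are therefore shown, from the RefSeq promoter table of build GRCm38.p6, all on the minus strand and written 5′ to 3′. Atp5g1 lies at chr11:96075632-96075881, Atp5g2 at chr15:102671048-102671297, Atp5g3 at chr2:73911327-73911576 and Cycs at chr6:50566570-50566819. Capitals mark matches to the NRF1 letters GCGCATGC or to the estrogen-related receptor (ERR) letters TCAAGGTCA, on either strand.
Atp5g1: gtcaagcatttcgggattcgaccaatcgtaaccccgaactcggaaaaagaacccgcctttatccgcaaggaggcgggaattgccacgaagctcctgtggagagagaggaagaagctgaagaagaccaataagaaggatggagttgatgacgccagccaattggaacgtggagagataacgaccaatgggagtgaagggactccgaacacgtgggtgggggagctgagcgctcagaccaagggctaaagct
Atp5g2: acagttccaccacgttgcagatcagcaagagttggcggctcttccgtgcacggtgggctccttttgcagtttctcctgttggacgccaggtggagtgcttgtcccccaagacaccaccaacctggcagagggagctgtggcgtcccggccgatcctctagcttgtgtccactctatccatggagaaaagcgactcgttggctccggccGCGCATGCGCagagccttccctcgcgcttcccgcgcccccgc
Atp5g3: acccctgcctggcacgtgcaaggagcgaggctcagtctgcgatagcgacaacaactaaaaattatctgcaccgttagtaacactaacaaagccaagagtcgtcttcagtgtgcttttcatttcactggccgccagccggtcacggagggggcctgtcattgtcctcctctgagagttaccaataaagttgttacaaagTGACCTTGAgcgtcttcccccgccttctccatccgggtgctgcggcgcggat
Cycs: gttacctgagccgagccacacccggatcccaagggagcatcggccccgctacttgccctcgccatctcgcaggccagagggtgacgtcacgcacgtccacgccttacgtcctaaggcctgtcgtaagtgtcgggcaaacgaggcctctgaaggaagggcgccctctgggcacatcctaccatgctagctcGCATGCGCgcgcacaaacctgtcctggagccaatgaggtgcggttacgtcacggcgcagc

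The window of Atp5g1 held none of the 4 motifs searched. Atp5g2 held a run with 2 overlapping NRF1 matches, which began 42 bases before the start of the gene. Atp5g3 held an ERR match that began at 52 bases, and Cycs an NRF1 match that began at 60 bases. RefSeq windows (250 bases before to 50 after the start) were found for 35 of the 41 genes. NRF1 letters were present in 7 of the 35 (20%) against 3.05% of 27025 genes with a window, and ERR letters in 2 (5.71%) against 0.466%. The GA-binding protein (GABP) letters CCGGAAGT were present in 4 (11.4%) against 4.31%, and the YY1 letters AAGATGGCG in 4 (11.4%) against 1.64%. At least 1 of the 4 motifs was found in 16 of 35 windows (45.7%) and in 8.93% of all windows. A match describes letters in these windows and is not a binding site.

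Of the 41 genes, 40 had a lower mean level in sST2-KO than in WT, 30 fell, 1 rose and 10 did not pass the test (edgeR quasi-likelihood test, Benjamini-Hochberg adjusted p under 0.05 over all genes tested). Among all genes tested, 9.10% fell and 10.5% rose. All 30 genes that fell did so by more than 2-fold, which 7.10% of all genes did. In 34 of the 41, all sST2-KO values were below all WT values, a pattern that 19.7% of all genes tested shared. The median log2 fold change was -1.59, against 0.034 for all genes. The 41 genes took 1.81% to 2.65% of all counts in WT and 0.610% to 0.903% in sST2-KO.

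**Figure D1:**
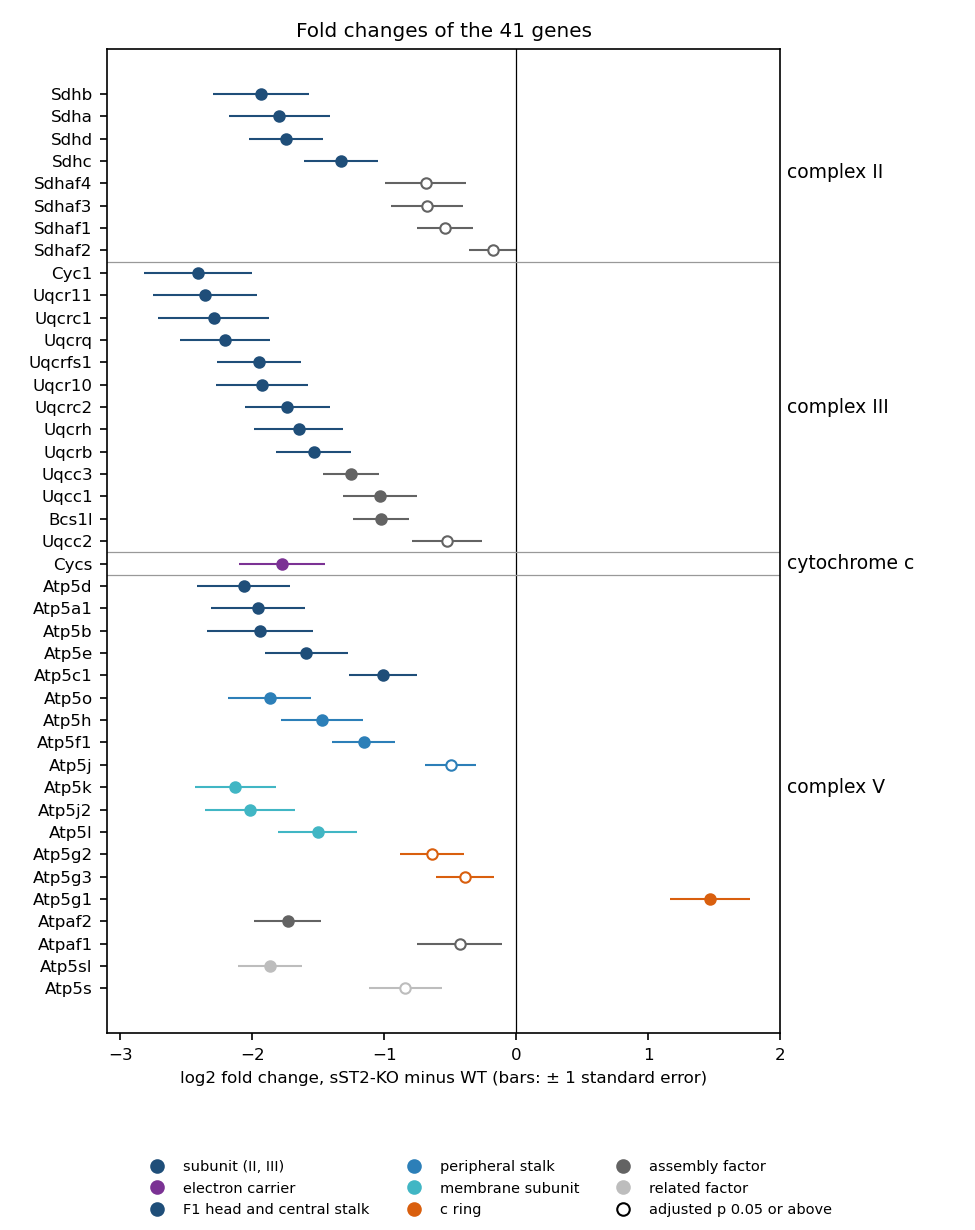
Log2 fold changes (sST2-KO minus WT, x axis) of the 41 genes by complex and role, with bars of 1 standard error, 3 libraries per group. Filled points passed the test. Structural subunits of complexes II and III all lie below -1, 6 of the 10 assembly factors have open points, and Atp5g1 alone lies to the right of 0.

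Libraries of a group moved together across the genes. WT replicate 3 was the highest WT library in 38 of 41 genes and WT replicate 1 the lowest in 31, and sST2-KO replicate 3, which stood apart by its marker sums, was the lowest sST2-KO library in 32. Without sST2-KO replicate 3, 28 of the 41 genes fell and 1 rose, with medians of -1.52 and -1.39 in complexes III and V. The order followed that of the brown adipocyte marker sum in WT (9220, 11492 and 17485 CPM in replicates 1, 2 and 3) and was near it in sST2-KO (767, 2139 and 423 CPM). Without WT replicate 3, none of the 41 genes passed the test in either direction (smallest edgeR adjusted p = 0.0563), while 40 stayed lower in mean level, 31 were lower and 1 was higher at an unadjusted p under 0.05, and the whole table held 22 lower and 36 higher calls. Without WT replicate 2, 18 of 28 structural subunits and 2 of 10 assembly factors were still called lower. A fit with the replicate number as a block also gave 0 calls, with 31 genes lower and 1 higher at an unadjusted p under 0.05. DESeq2 called all 30 genes that fell, and 31 in all.

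**Figure D2:**
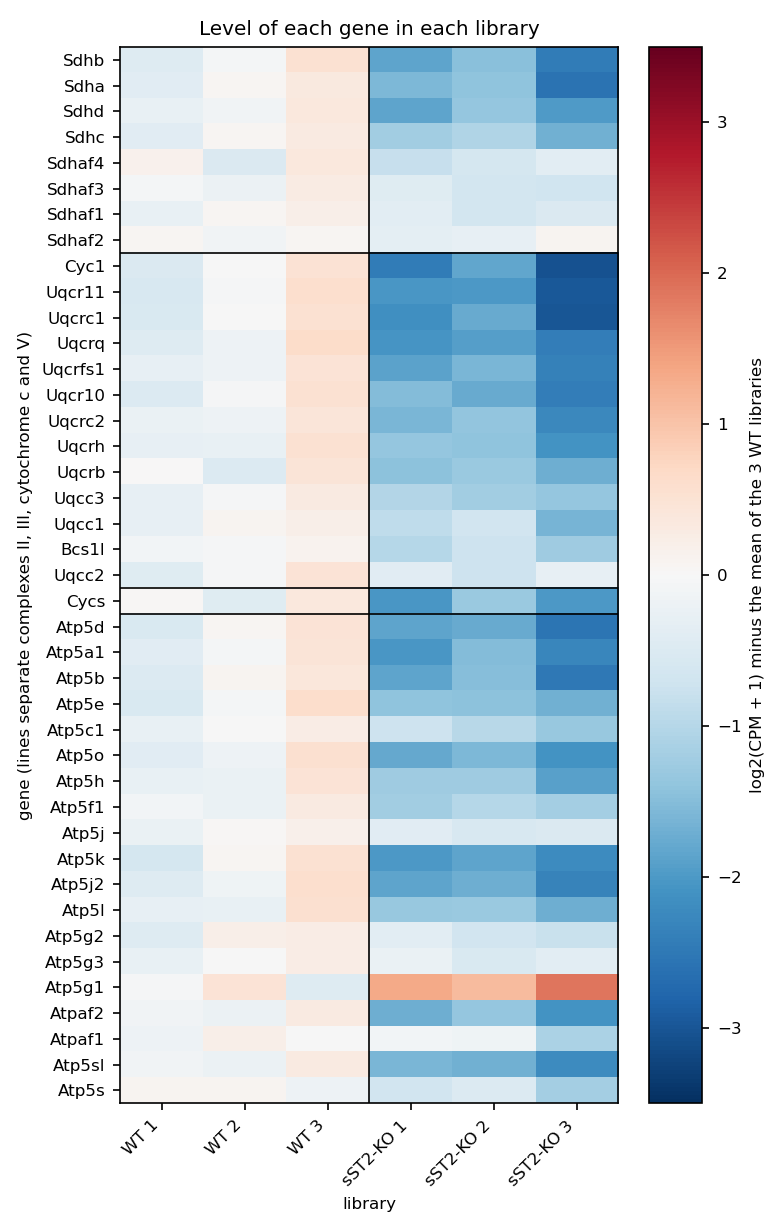
Level of each gene in each library as log2(CPM + 1) minus the mean of the 3 WT libraries (colour). The 3 sST2-KO columns are blue in all rows but Atp5g1 and a few pale rows, and the column of sST2-KO replicate 3 is the darkest in most rows.

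Complex II split by role. All 4 subunits fell and none of the 4 assembly factors passed the test by edgeR or DESeq2 (2 were lower at an unadjusted p under 0.05), with medians of -1.77 and -0.61 on the log2 scale. Summed over the 8 genes, the level was 2615, 3404 and 4418 CPM in WT and 1141, 1353 and 748 CPM in sST2-KO, a 3.22-fold lower mean.

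Sdha (chr13:74469359-74498436, build GRCm39), the flavoprotein that holds the succinate site, had 1178, 1621 and 1945 CPM in the WT libraries and 523, 588 and 257 CPM in sST2-KO. It fell by 3.47-fold (log2 fold change -1.79, SE 0.38, edgeR adjusted p = 0.0219). Sdhb (chr4:140688502-140709380), the iron-sulfur subunit, had 584, 754 and 1144 CPM in WT and 219, 286 and 144 CPM in sST2-KO. It had the largest fall in point estimate of the complex (-1.93, SE 0.37, edgeR adjusted p = 0.0170). The groups did not overlap in either gene. Without WT replicate 2, the call of Sdha was lost (edgeR adjusted p = 0.0651).

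The membrane anchors Sdhc and Sdhd, which bind ubiquinone and haem, also fell. Sdhd had 426, 476 and 670 CPM in WT and 143, 199 and 128 CPM in sST2-KO (-1.74, SE 0.28, edgeR adjusted p = 0.0147). Sdhc had 336, 470 and 555 CPM in WT and 189, 215 and 138 CPM in sST2-KO (-1.33, SE 0.28, edgeR adjusted p = 0.0211), a call lost without WT replicate 2 (0.0658). Per Sdha count, Sdhc counts were 0.285 to 0.290 in WT and 0.362 to 0.537 in sST2-KO, whereas Sdhb and Sdhd counts per Sdha count overlapped between groups. These ratios were chosen after the values were seen and carry no test.

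The assembly factors insert the flavin and iron-sulfur centres of Sdha and Sdhb. Sdhaf2, needed for the flavin, was nearest to 0, with 48.9, 42.8 and 48.9 CPM in WT and 36.7, 38.1 and 49.7 CPM in sST2-KO (-0.18, SE 0.18, edgeR adjusted p = 0.527), and its sign turned when libraries were scaled by total counts alone (0.094). The log2 fold changes of Sdhaf1, Sdhaf3 and Sdhaf4 were -0.54, -0.68 and -0.69, with edgeR adjusted p between 0.113 and 0.150. Counts of the 4 factors per 100 subunit counts were 3.58, 2.49 and 2.40 in WT and 6.27, 5.09 and 12.1 in sST2-KO, with no overlap.

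In complex III, 12 of 13 genes fell, with a median log2 fold change of -1.73. All 9 subunits fell (median -1.95) and so did 3 of 4 assembly factors (median -1.03). The summed level was 4680, 5651 and 8786 CPM in WT and 1719, 1975 and 1112 CPM in sST2-KO, a 3.98-fold lower mean.

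Cyc1 (chr15:76227204-76230462), cytochrome c1, which passes electrons to cytochrome c, had the most negative fold change of all 41 genes. Its levels were 652, 909 and 1314 CPM in WT and 168, 261 and 111 CPM in sST2-KO, a 5.33-fold fall (-2.41, SE 0.41, edgeR adjusted p = 0.0151). Its closest WT and sST2-KO libraries lay well apart. Uqcrfs1 (chr13:30723448-30729345), the Rieske iron-sulfur protein, had 538, 579 and 917 CPM in WT and 181, 217 and 128 CPM in sST2-KO (-1.95, SE 0.32, edgeR adjusted p = 0.0148).

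Uqcrc1, a core subunit facing the matrix, had the highest level of the complex in CPM. It had 884, 1274 and 1871 CPM in WT and 289, 374 and 159 CPM in sST2-KO (-2.29, SE 0.42, edgeR adjusted p = 0.0166). The other 6 subunits had log2 fold changes between -2.36 (Uqcr11) and -1.54 (Uqcrb), both named for being the ends of this range. Uqcr11 shares 970 bases of exon with a gene on the opposite strand, and whether the counting used strand is not stated.

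Among the assembly factors, Uqcc2 was the gene that did not pass the test. Its levels were 27.8, 36.4 and 53.3 CPM in WT and 28.4, 22.6 and 30.6 CPM in sST2-KO, so that the groups overlapped (-0.52, SE 0.27, edgeR adjusted p = 0.200). Bcs1l, which inserts the Rieske protein, and Uqcc1 and Uqcc3, which act with Uqcc2 on cytochrome b, had log2 fold changes of -1.03, -1.03 and -1.25 and fell. Counts of the 4 factors per 100 subunit counts were 3.92, 4.02 and 3.08 in WT and 7.45, 6.56 and 9.10 in sST2-KO.

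Cytochrome b, the subunit of complex III encoded in mitochondrial DNA, is listed as CYTB. It had 25199, 19825 and 35942 CPM in WT and 15517, 19022 and 7727 CPM in sST2-KO and did not pass the test (-0.94, SE 0.51, edgeR adjusted p = 0.227). Per count of the 9 nuclear subunits, CYTB counts were 5.59, 3.65 and 4.22 in WT and 9.70, 10.3 and 7.58 in sST2-KO. The ratio, chosen after the values were seen, was thus higher in every sST2-KO library, in which the nuclear subunits were lower. The matching ratio of ATP6 to complex V subunits, given below, overlapped between groups. All counts on the mitochondrial genome made up 11.8% to 15.9% of counts in WT and 6.80% to 16.6% in sST2-KO.

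Cycs (chr6:50539541-50543557), somatic cytochrome c, carries electrons from complex III to complex IV. It had 756, 545 and 936 CPM in WT and 176, 298 and 180 CPM in sST2-KO (-1.78, SE 0.32, edgeR adjusted p = 0.0165). Its fall of 3.42-fold lay between those of complexes II and III as sums. Cycs has many processed pseudogenes, and how reads matching several places were counted is not stated. Its testis paralog Cyct had 1 count in the 6 libraries.

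Complex V was the most mixed, with 13 genes that fell, 1 that rose and 5 that did not pass the test (median -1.50). The summed level was 10087, 13270 and 17931 CPM in WT and 4427, 5088 and 3317 CPM in sST2-KO, a 3.22-fold lower mean. The F1 head and central stalk (5 of 5 fell, median -1.94) and the small membrane subunits (3 of 3 fell, median -2.02) stood beside a peripheral stalk with a smaller median (3 of 4 fell, -1.31), and none of the 3 c ring genes fell by edgeR or DESeq2 (1 was lower at an unadjusted p under 0.05).

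Atp5b (chr10:127919132-127926261), the catalytic beta subunit, had the highest level of all 41 genes. It had 3638, 5499 and 6693 CPM in WT and 1415, 1811 and 902 CPM in sST2-KO (-1.94, SE 0.40, edgeR adjusted p = 0.0204). The call was lost without WT replicate 2 (edgeR adjusted p = 0.0624) or sST2-KO replicate 1 (0.0528). Atp5a1, the alpha subunit, had 2119, 2682 and 3831 CPM in WT and 681, 971 and 576 CPM in sST2-KO (-1.95, SE 0.36, edgeR adjusted p = 0.0164). Both subunits occur in equal number in the F1 head, and Atp5a1 counts per Atp5b count overlapped between groups, 0.488 to 0.582 in WT and 0.482 to 0.639 in sST2-KO.

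Atp5k, the membrane subunit e that helps ATP synthase to form dimers, had the most negative fold change of complex V. Its levels were 67.1, 108 and 150 CPM in WT and 24.7, 28.0 and 21.7 CPM in sST2-KO (-2.13, SE 0.31, edgeR adjusted p = 0.0136). The gamma subunit Atp5c1 had the smallest fall of the F1 genes (-1.01, edgeR adjusted p = 0.0346) and was named after its value was seen. In the peripheral stalk, Atp5j did not pass the test (-0.50, edgeR adjusted p = 0.105) although its groups did not overlap. It shares 500 bases of exon with Gabpa on the opposite strand.

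Of the factors around complex V, Atpaf2, which helps the alpha subunit into F1, fell (-1.73, edgeR adjusted p = 0.0136), whereas Atpaf1, which does so for the beta subunit, had overlapping groups (-0.43, edgeR adjusted p = 0.379). Counts of both per 100 structural subunit counts overlapped between groups (0.955 to 1.29 in WT and 1.06 to 1.23 in sST2-KO), unlike those of complexes II and III. This ratio mainly follows Atpaf2, which had 4838 counts over the 6 libraries against 827 of Atpaf1. Atp5sl, now named Dmac2, fell (-1.87, edgeR adjusted p = 0.0122), and Atp5s, a coupling factor, did not pass the test (-0.84, edgeR adjusted p = 0.0692). Atp5sl and Atp5s were counted with complex V by the Atp5 stem of their symbols alone, which does not show that they act on it. Atp5sl is thus among the 13 genes counted as falling in complex V. Of the 15 structural subunits of complex V alone, 11 fell, with a median log2 fold change of -1.50.

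The c ring genes are Atp5g1 (chr11:95959678-95966757), Atp5g2 (chr15:102571295-102580787) and Atp5g3 (chr2:73738779-73741933), now named Atp5mc1 to Atp5mc3. Atp5g1 was the gene that rose. It had 18.7, 26.9 and 13.8 CPM in WT and 49.8, 42.6 and 72.2 CPM in sST2-KO, a 2.77-fold rise with no overlap (1.47, SE 0.30, edgeR adjusted p = 0.0204). Behind these values were 112 to 286 counts per WT library and 360 to 734 per sST2-KO library. The call was lost without WT replicate 1 (edgeR adjusted p = 0.0523) or WT replicate 3 (0.0817), with log2 fold changes of 1.42 and 1.26. The highest level of Atp5g1 was in sST2-KO replicate 3, which stood apart by its marker sums. The part of cell content in the rise of Atp5g1 was not tested.

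Atp5g2 had 95.7, 153 and 158 CPM in WT and 102, 82.1 and 77.0 CPM in sST2-KO (-0.64, SE 0.25, edgeR adjusted p = 0.106), and passed the test without WT replicate 1 (-0.84, edgeR adjusted p = 0.0437). Atp5g3, the most abundant of the 3, had 238, 284 and 342 CPM in WT and 242, 197 and 221 CPM in sST2-KO (-0.39, SE 0.22, edgeR adjusted p = 0.240). One sST2-KO library of each lay within the WT range. Atp5g3 shares 222 bases of exon with an opposite-strand gene, Atp5g2 shares 2 and Atp5g1 none.

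The share of Atp5g1 in the counts of the 3 genes was 5.30%, 5.79% and 2.68% in WT and 12.6%, 13.2% and 19.5% in sST2-KO. In WT replicate 3, with 4180 counts over the 3 genes, the 95% exact binomial interval was 2.21% to 3.22%, and in sST2-KO replicate 1, with 5674 counts, it was 11.8% to 13.5%. Such intervals cover counting error only. The mean share was 4.59% ± 1.67 (SD, n = 3) in WT and 15.1% ± 3.82 (SD, n = 3) in sST2-KO, a difference of 10.5 percentage points (exact two-sided permutation test, p = 0.1, the smallest that 3 against 3 allows). Scaled by transcript length, the shares were 6.52% and 20.7%. The summed level of the 3 genes was 443 ± 82.4 CPM (SD, n = 3) in WT and 362 ± 36.9 CPM (SD, n = 3) in sST2-KO (exact two-sided permutation test, p = 0.3).

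**Figure D3:**
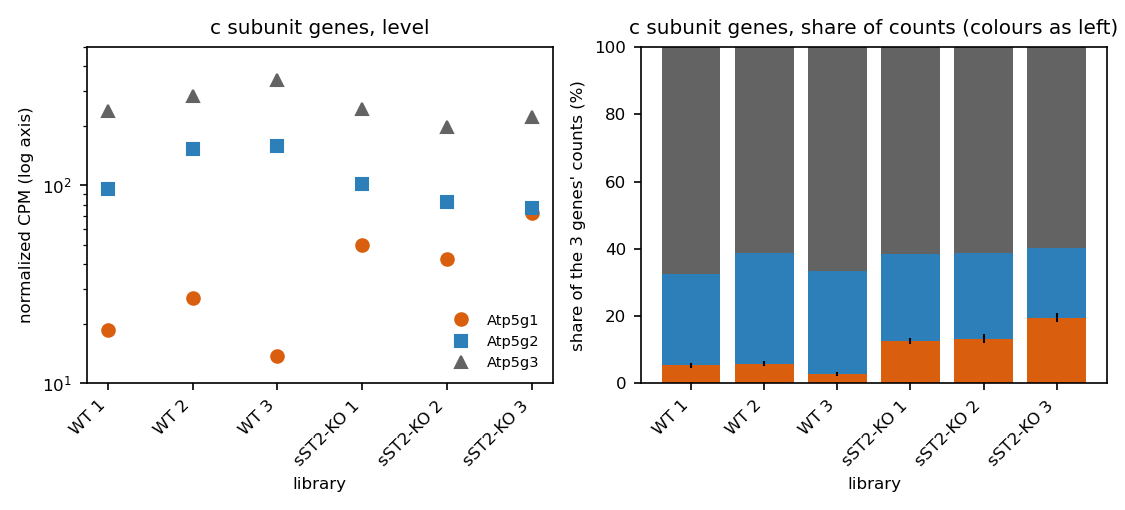
Left, level of the 3 c subunit genes in each library (CPM, log axis). Right, share of each gene in their summed counts (%), with the 95% exact binomial interval of the Atp5g1 share, which is 2.68% to 5.79% in the WT libraries and 12.6% to 19.5% in the sST2-KO libraries.

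Per 100 counts of Atp5b, the c subunit genes had 9.69, 8.43 and 7.67 counts in WT and 27.9, 17.8 and 41 in sST2-KO. The ratio was higher in every sST2-KO library, where Atp5b itself was lower, while the summed c subunit level overlapped between groups. Counts of Slc25a4 and Slc25a5 per 100 Atp5b counts were also higher in every sST2-KO library (14.3 to 20.4 in WT, 30.8 to 69.3 in sST2-KO). The pattern is thus not particular to the c subunit genes. Per kilobase of the canonical transcript, the mean WT level was 2740 CPM for Atp5b, 292 CPM for Atp5g3, 185 CPM for Atp5g2 and 32.3 CPM for Atp5g1. In sST2-KO these levels per kilobase were 714, 223, 119 and 89.7 CPM. By these group means, the order of the 4 genes was the same in both groups. In sST2-KO replicate 3 alone, Atp5g1 (72.2 CPM) came near Atp5g2 (77.0 CPM) before scaling by length. The canonical transcript of Atp5g1 is the shorter (612 against 731 bases), so that per kilobase Atp5g1 lay above Atp5g2 in that library.

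**Figure D4:**
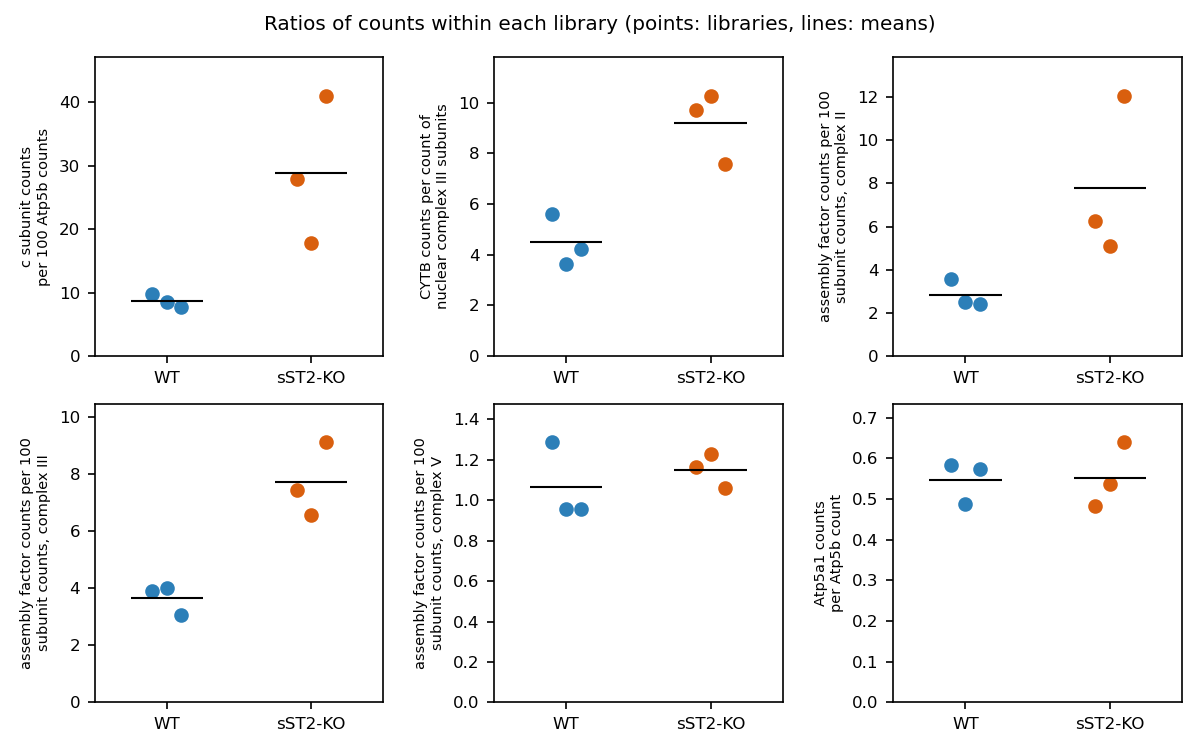
Ratios of counts within each library by group, chosen after the values were seen and not tested (points are libraries, lines are means of 3). The c subunit, CYTB and complex II and III assembly factor ratios are higher in all sST2-KO libraries than in all WT libraries, and the complex V assembly factor and Atp5a1 to Atp5b ratios overlap.

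Other genes of ATP synthase lie outside the symbols used. Atpif1, the inhibitor that blocks ATP hydrolysis by F1, had 19.6, 18.8 and 16.1 CPM in WT and 25.4, 28.9 and 40.3 CPM in sST2-KO. It rose (0.79, SE 0.23, edgeR adjusted p = 0.0470), close to the threshold, and the call was lost with DESeq2's scaling factors in edgeR (adjusted p = 0.0515), with no filter (0.0546), and without any 1 of WT replicates 1, 2 and 3 or sST2-KO replicates 2 and 3 (0.0747 to 0.169). The small subunits listed under the older names Usmg5 (-1.48, edgeR adjusted p = 0.0169) and 2010107E04Rik (-1.39, edgeR adjusted p = 0.0168) fell. Usmg5 shares 2680 of the 2812 bases of its canonical transcript with Taf5 on the opposite strand. As the use of strand is not stated, its counts may include reads of Taf5. Of the subunits encoded in mitochondrial DNA, ATP6, the proton channel, had 422, 227 and 478 CPM in WT and 286, 356 and 138 CPM in sST2-KO, with overlapping groups (-0.53, SE 0.41, edgeR adjusted p = 0.393). Per 100 counts of the nuclear structural subunits of complex V, ATP6 had 4.28, 1.74 and 2.71 counts in WT and 6.59, 7.14 and 4.23 in sST2-KO. These ratios overlapped between groups, unlike those of CYTB. ATP8 had 1, 1 and 3 counts in WT and 0 in every sST2-KO library, too few to compare.

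The carriers that exchange ATP, ADP and phosphate over the inner mitochondrial membrane and the outer membrane pores were 7 listed genes, of which 6 were tested. By edgeR 0 fell and 0 rose, 2 were lower at an unadjusted p under 0.05, and DESeq2 called 2 lower. The phosphate carrier Slc25a3 and the adenine nucleotide carriers Slc25a4 and Slc25a5 had log2 fold changes of -0.28, -0.41 and -0.68, and the pores Vdac1 to Vdac3 had -0.31, -0.61 and -0.33. The mitochondrial creatine kinases Ckmt1 and Ckmt2 were on the same list and are neither carriers nor pores. Ckmt1 was too low to test. Ckmt2, the muscle form, had 2.32 CPM in WT replicate 1, 0 in the other WT libraries and 13.2 to 44.0 CPM in sST2-KO (edgeR adjusted p = 0.0291), and moved with the skeletal muscle markers given above.

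A further list of 11 tested genes mixed assembly factors with genes of other roles, and 8 of the 11 fell (median -1.09). Of the 8, 5 act on complexes III and V or on cytochrome c. Ttc19 (-0.62) and Lyrm7 (-1.43) serve complex III, Tmem70 (-1.10) and Tmem242 (-1.09) serve ATP synthase, and Hccs attaches haem to cytochromes c and c1 (-1.34, edgeR adjusted p = 0.0157). The other 3 were the mitochondrial fission gene Mtfp1 (-3.26) and Higd1a and Higd2a (-0.94 and -1.25), which are tied to cytochrome c oxidase.

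The other complexes of the chain gave the frame for these values. All 36 tested subunit genes of complex I fell (median -1.75), and so did 11 of 14 of complex IV (median -1.73). Complex IV genes ranged from -3.68 to 3.56. Its 1 gene with a positive fold change was higher in every sST2-KO library but did not pass the test. Cox7a1 and Cox8b are on both the complex IV and the brown adipocyte lists. The structural subunits of complexes II, III and V together had a median of -1.77, with 24 of 28 that fell, 1 that rose and 3 that did not pass the test. Their 10 assembly factors had a median of -0.68, with 4 that fell. The difference between subunits and assembly factors was not tested, and across the 41 genes more abundant genes had more negative fold changes (Pearson r = -0.70 and Spearman rho = -0.73 between log2 mean WT level and log2 fold change, across genes that share the same 6 libraries).

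Beside these falls stand the sums of the marker lists. The brown adipocyte list was 11.5-fold lower in sST2-KO, a list of 12 genes of all adipocytes 2.21-fold lower, and complexes II, III and V 3.22-, 3.98- and 3.22-fold lower. Ucp1 itself had 5210, 6439 and 10487 CPM in WT and 160, 1038 and 153 CPM in sST2-KO. It weighs heavily in the sum of the brown adipocyte list, with 7378 of 12732 CPM in the WT mean. By the median over its 15 genes, that list was 7.80-fold lower, with 11 that fell and 1 with a positive fold change. Adipocyte marker sums were 29465 to 34436 CPM in WT and 9371 to 16821 CPM in sST2-KO, with 2 of the 12 genes that fell. The part of adipocyte content in the lower levels of the 41 genes was not tested.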

How the data were processed

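BAT RNA of 6 mice (3 WT, 3 sST2-KO) was sequenced as poly-A libraries with 150 bp paired-end reads. The authors aligned reads with HISAT2 (2.2.1, after FastQC 0.12.1) to mm39 and counted them on genes with htseq-count. Its version, the annotation and the use of strand are not given in the sources used here. The deposited values are raw counts per gene symbol, 8159442 to 12874809 per library. No per-sample column was left out (0), and the table holds no comparison of the authors.

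Counts were tested with edgeR 4.0.16 in R 4.3.3 (filterByExpr, TMM factors, glmQLFit and glmQLFTest, Benjamini-Hochberg over 14542 genes, adjusted p under 0.05), since the quasi-likelihood test suits 3 replicates per group. DESeq2 1.42.0 was an alternative. Standard errors are of log2 fold changes and the common biological coefficient of variation was 0.325. Simulated counts with known changes were tested first. Their spread between replicates was set lower than the common spread of these data, so they do not show how the test performs here. CPM values use TMM-scaled library sizes. None of the 15 pairs of libraries agreed within sampling noise (chi-square per degree of freedom 40.1 to 286).

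Members and lists were chosen with earlier results of these data known. Named by rule were, per complex, the members with the most negative and most positive fold change and the highest CPM, members that rose, the c subunit genes, Cycs, the 4 Sdh subunits, Cyc1, Uqcrfs1, Atp5b, Atp5a1, Atpif1, CYTB, ATP6 and ATP8. Other genes were named after their values were seen. Ratios of counts within a library, other than the Atp5g1 share, were also chosen after the values were seen and carry no test. Gene positions and lengths come from GENCODE on GRCm39 (41 genes matched, 17 by an older name), and 23 of the 41 share exon bases with an opposite-strand gene, 9 of them over 200. Promoters come from RefSeq (GRCm38.p6). Groups share replicate numbers, but the labels do not say that the numbers pair mice, so the main fit has no block. Deviations of same-numbered libraries correlated at -0.07, 0.22 and -0.32, which with so few libraries cannot decide whether mice were paired. Alternatives were other scalings and filters, robust dispersion, the replicate block and each library left out.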

Additional observations from a re-analysis of the deposited data

How the results depend on the processing

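Under RLE factors, no filter, a minimum of 10 counts in every library, robust dispersion, DESeq2 or a 2-fold minimum, the counts of genes that fell in complexes II, III and V stayed within 1.5 times the values given. With the replicate number as a block, 0 genes of complex II, 0 of complex III, 0 of complex V and 0 of all 41 were called lower and 0 higher, and the whole table held 0 calls (smallest edgeR adjusted p of the 41 genes 0.0644). Whether the numbers pair mice is not stated. The fold changes kept their size (medians -0.99, -1.74 and -1.46 for complexes II, III and V). For the Atp5g1 share, pairing by number leaves the mean difference of 10.5 points as it is by arithmetic, and the exact sign-flip permutation p is 0.25, the smallest that 3 pairs allow.

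With 1 library left out at a time, genes that fell numbered 0 to 4 in complex II, 0 to 12 in complex III, 0 to 14 in complex V and 0 to 30 of all 41, and genes that rose 0 to 1. The 0 counts came without WT replicate 3, and without WT replicate 1 for the gene that rose. Without WT replicate 2, the library with liver transcripts, 2 genes of complex II, 18 subunits and 2 assembly factors were called lower. The median of complex V ranged from -1.66 to -1.20, that of complex II from -1.12 to -0.84 and that of complex III from -1.95 to -1.50. The difference in Atp5g1 share ranged from 8.35 to 11.8 points.

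Scaling by total counts alone moved the median of all genes from 0.034 to 0.296 and the medians of complexes II and V to -0.73 and -1.22, gave 28 genes that fell, and turned Sdhaf2 to 0.094 (edgeR adjusted p = 0.765). Relative to the all-gene median these shifts are of the same size as that of the whole table. The cause of the other changes was not tested. With 3 mice per group, the exact permutation test cannot go below 0.1.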
